A study of Mus musculus with 8 samples.

Results

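The genes described here are 10 genes of prostaglandin and leukotriene synthesis, measured in 4 sorted populations of mouse myeloid cells. They were chosen by name: Pla2g4a, Ptgs1, Ptgs2, Ptges, Hpgds, Hpgd, Alox5, Alox5ap, Ltc4s and Alox15. All 10 were measured, each by 1 probe set that named no further gene, among 21442 genes on 8 arrays. Each sample's total RNA was biotin-labelled and run on its own Affymetrix array. The values are log2 expression values, so a difference of 1 is a factor of 2.

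Both pathways begin with arachidonic acid, a fatty acid that phospholipases release from membranes. Cyclooxygenases convert it to prostaglandin H2, from which terminal synthases make prostaglandin E2, prostaglandin D2 and other prostanoids, and a dehydrogenase inactivates the products. In the leukotriene branch, 5-lipoxygenase acts together with its activating protein to make leukotriene A4, the precursor of leukotriene B4 and leukotriene C4. In the gut, prostaglandin E2 is known for its part in mucosal repair and in the growth of colorectal tumours, and loss of the dehydrogenase is a known feature of colorectal cancer.

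All cells came from C57BL/6 mice of the genotype Cx3cr1gfp/+, which carry a green fluorescent reporter in 1 copy of the fractalkine receptor gene, and no treatment was applied. F4/80-high tumour-associated macrophages (F4/80-high TAM) and Ly6C-high tumour-infiltrating macrophages (Ly6C-high TAM) were sorted from orthotopic colorectal tumours, macrophages of the steady-state lamina propria from colon (colon macrophages), and monocytes with high Ly6C from spleen (spleen monocytes). There were 2 arrays for each, numbered 1 and 2. The tumour samples were labelled male, the colon samples male and female, and the spleen samples male and mixed. The labels give no age, do not say whether the spleens came from mice with tumours, do not name the tumour cells, and do not say whether samples came from separate animals or pools, so the p-values measure the spread between these samples, which may be technical.

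Markers of macrophages and monocytes were present on every array, which does not tell the 4 sorts apart. All 12 macrophage and monocyte markers, among them Csf1r, Cd68 and Lyz2, lay above background on each of the 8 arrays, and their mean log2 value was between 11.76 and 12.38. Background was taken as the 95th percentile of 1338 olfactory and vomeronasal receptor genes, which was between 6.16 and 6.31 in the 4 populations. The replicate 2 arrays of both tumour populations stood apart from replicate 1. There, the mean log2 value of 15 gut epithelial markers was 8.64 in F4/80-high TAM and 9.16 in Ly6C-high TAM, against 6.88 and 7.01 in the replicate 1 arrays. The mean of 12 fibroblast markers was 8.59 and 9.40 in the same replicate 2 arrays, against 7.43 and 7.92. The colon arrays had epithelial means of 11.15 and 12.00, and the spleen arrays 6.98 and 6.33. On the same colon arrays, the macrophage and monocyte markers had means of 11.93 and 11.85. Between replicates, 7.16% of genes differed by 2-fold or more in Ly6C-high TAM, 3.58% in F4/80-high TAM, but 1.73% among colon macrophages and 0.354% among spleen monocytes.

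The pattern common to both tumour populations was a low level of Hpgd, the prostaglandin dehydrogenase gene, which was 17.5-fold lower in F4/80-high TAM than in colon macrophages and 14.4-fold lower in Ly6C-high TAM than in spleen monocytes. In bulk samples, fewer cells that transcribe a gene and less RNA per cell cannot be told apart. Ptgs1 and Hpgds were high in colon macrophages and F4/80-high TAM and low in spleen monocytes, with Ly6C-high TAM between. Alox5ap was lower in colon macrophages than in each of the other populations. Differences were tested with limma over all 21442 genes, and a gene passed with a Benjamini-Hochberg adjusted p no higher than 0.05 and at least a 2-fold change. Of 60 member differences in the 6 pairs of populations, 17 passed, from 6 genes, and Pla2g4a, Ptges, Ltc4s and Alox15 passed in no pair. Of all genes, 0.266% (between the tumour populations) to 10.9% (colon macrophages against spleen monocytes) passed in a pair.

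**Figure D1:**
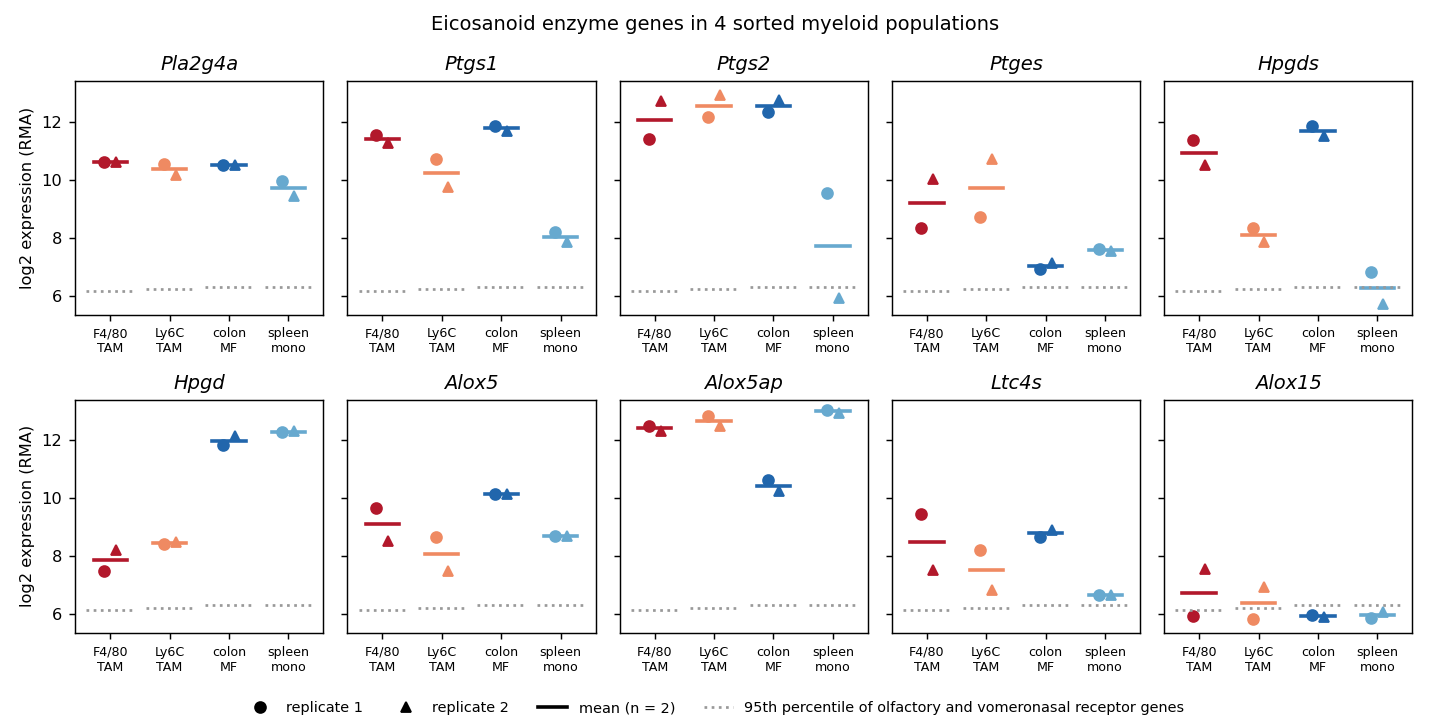
Log2 expression (vertical axis, RMA values) of the 10 genes in each of the 8 arrays, with 1 panel per gene and 1 colour per population. Circles are replicate 1, triangles replicate 2, bars the mean of both, and dotted lines the 95th percentile of olfactory and vomeronasal receptor genes. Hpgd lies between 7.51 and 8.48 on the 4 tumour arrays and between 11.82 and 12.33 on the others.

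Pla2g4a encodes cytosolic phospholipase A2, which releases arachidonic acid from membrane phospholipids. Its log2 expression was 10.63 and 10.61 in F4/80-high TAM, 10.55 and 10.17 in Ly6C-high TAM, 10.52 and 10.50 in colon macrophages and 9.97 and 9.44 in spleen monocytes. It had the smallest range over the arrays of the 10 genes: both spleen arrays were below all others, and the ranges of Ly6C-high TAM and colon macrophages overlapped. The level was 1.88-fold higher in F4/80-high TAM than in spleen monocytes (0.91 ± 0.21 on the log2 scale, SE, with 2 arrays a group, limma adjusted p = 0.0369) and 1.75-fold higher in colon macrophages than in spleen monocytes (0.81 ± 0.21, limma adjusted p = 0.039), which is under the fold limit. After median centring the first of these was 1.04 and passed (limma adjusted p = 0.0196), and without spleen monocytes replicate 1 the second was 1.07 and passed (limma adjusted p = 0.0447).

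The cyclooxygenase genes came next in the pathway. Ptgs1, the cyclooxygenase 1 gene, is transcribed constitutively in many tissues, and Ptgs2, the cyclooxygenase 2 gene, is induced by inflammatory stimuli. Ptgs1 had log2 values of 11.87 and 11.69 in colon macrophages, 11.55 and 11.25 in F4/80-high TAM, 10.70 and 9.76 in Ly6C-high TAM and 8.20 and 7.86 in spleen monocytes. No 2 populations overlapped, and the order from high to low was colon macrophages, F4/80-high TAM, Ly6C-high TAM and spleen monocytes. The step between the highest neighbours, colon macrophages and F4/80-high TAM, did not pass (-0.38 ± 0.31 for F4/80-high TAM minus colon macrophages, limma adjusted p = 0.542). Nor did the step between the 2 tumour populations (1.17 ± 0.31, limma adjusted p = 0.273). That step passed in a fit with a term for the replicate number of the tumour arrays, which the labels tie to nothing shared. Against spleen monocytes, Ptgs1 was 13.5-fold higher in colon macrophages (3.75 ± 0.31, limma adjusted p = 0.000674), 10.4-fold higher in F4/80-high TAM (3.37 ± 0.31, limma adjusted p = 0.0013) and 4.60-fold higher in Ly6C-high TAM (2.20 ± 0.31, limma adjusted p = 0.0101). It was 2.93-fold lower in Ly6C-high TAM than in colon macrophages (-1.55 ± 0.31, limma adjusted p = 0.0241). The call against spleen monocytes in Ly6C-high TAM was lost without spleen monocytes replicate 1 (limma adjusted p = 0.0574) or replicate 2 (limma adjusted p = 0.0978). The call against colon macrophages was lost without colon macrophages replicate 1 (limma adjusted p = 0.126), colon macrophages replicate 2 (limma adjusted p = 0.0976) or either spleen array (limma adjusted p = 0.0538).

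Ptgs2 was high on all arrays but those of spleen monocytes. Its log2 values were 11.42 and 12.71 in F4/80-high TAM, 12.16 and 12.92 in Ly6C-high TAM, 12.33 and 12.76 in colon macrophages and 9.53 and 5.93 in spleen monocytes. The first 3 populations overlapped, and both spleen arrays lay below them. The spleen replicates, labelled male and mixed, were themselves 12.1-fold apart, and that gap ranked 2 among 21442 genes in this population. Replicate 2 lay below the background of 6.31 and replicate 1 above it, so folds against spleen monocytes include a value under background. Ptgs2 was 28.2-fold higher in colon macrophages than in spleen monocytes (4.82 ± 1.08, limma adjusted p = 0.0248) and 20.1-fold higher in F4/80-high TAM (4.33 ± 1.08, limma adjusted p = 0.0494). The difference for Ly6C-high TAM, 4.81 ± 1.08, missed the threshold (limma adjusted p = 0.0501). The colon call was lost without colon macrophages replicate 1 (limma adjusted p = 0.101) or replicate 2 (limma adjusted p = 0.127). The F4/80-high TAM call was lost in 14 of 20 other settings, at limma adjusted p values of up to 0.235 (without F4/80-high TAM replicate 2). Its difference was 2.53 without spleen monocytes replicate 2 and 6.13 without replicate 1. The colon difference was 3.02 without spleen monocytes replicate 2 and 6.61 without replicate 1. The Ly6C-high TAM difference was 3.01 without spleen monocytes replicate 2 (limma adjusted p = 0.0978). It was 6.61 without replicate 1 and passed (limma adjusted p = 0.00882), as it did without Ly6C-high TAM replicate 1 (limma adjusted p = 0.0443). The gene most like Ptgs2 over the 8 arrays was the chemokine gene Cxcl2 (Pearson r = 0.99), which had 8.90 and 5.46 in the spleen arrays and between 10.81 and 12.59 in the others.

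The terminal synthases differed from each other. Ptges encodes the inducible microsomal prostaglandin E synthase, which acts with cyclooxygenase 2. Its log2 expression was 8.35 and 10.02 in F4/80-high TAM, 8.71 and 10.72 in Ly6C-high TAM, 6.92 and 7.14 in colon macrophages and 7.61 and 7.55 in spleen monocytes. Every tumour array was above every colon and spleen array, and in both tumour populations replicate 2 was the higher one, by 3.19-fold and 4.02-fold. The largest of the tumour differences was 6.44-fold, for Ly6C-high TAM over colon macrophages (2.69 ± 0.73, limma adjusted p = 0.0645). F4/80-high TAM differed from colon macrophages by 2.16 ± 0.73 (limma adjusted p = 0.11), and Ly6C-high TAM from spleen monocytes by 2.14 ± 0.73 (limma adjusted p = 0.155), so none of the pairs passed. Without replicate 2 of both tumour populations, these 3 differences were 1.68 (limma adjusted p = 0.00273), 1.32 (limma adjusted p = 0.00732) and 1.13 (limma adjusted p = 0.0127), and all 3 passed. That fit took its spread from the colon and spleen replicates, and assumes that the lone tumour arrays vary like those. Leaving out single arrays also brought passes. F4/80-high TAM minus colon macrophages passed without either Ly6C-high TAM array (limma adjusted p = 0.0306), which leaves that difference as it was. Without Ly6C-high TAM replicate 1, the difference of that population was 3.69 from colon macrophages (limma adjusted p = 0.0158) and 3.14 from spleen monocytes (limma adjusted p = 0.0184). The arrays with more Ptges within each tumour population were also those with more fibroblast and epithelial marker signal, while the colon arrays, with fibroblast means of 8.12 and 8.36, had the least Ptges. The part of these cells in the Ptges values was not tested.

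Hpgds encodes the haematopoietic prostaglandin D synthase, an enzyme known from mast cells and some macrophages. It had log2 values of 11.86 and 11.50 in colon macrophages, 11.37 and 10.51 in F4/80-high TAM, 8.32 and 7.84 in Ly6C-high TAM and 6.82 and 5.71 in spleen monocytes, whose mean was at background. The 4 populations did not overlap. The 2 macrophage populations at the top were not separated by the test (-0.74 ± 0.43 for F4/80-high TAM minus colon macrophages, limma adjusted p = 0.356). Of the spleen arrays, 1 lay below the background of 6.31, so folds against spleen monocytes are lower bounds, taken with that array at 6.31. Hpgds was at least 34.7-fold higher in colon macrophages than in spleen monocytes (measured log2 difference 5.42 ± 0.43, limma adjusted p = 0.000589) and at least 20.7-fold higher in F4/80-high TAM (4.67 ± 0.43, limma adjusted p = 0.00131). It was 12.1-fold lower in Ly6C-high TAM than in colon macrophages (-3.60 ± 0.43, limma adjusted p = 0.0046). These 3 calls held in each of the 20 other settings. The next largest differences missed the threshold: 7.24-fold between the tumour populations (2.86 ± 0.43, limma adjusted p = 0.0744), and at least 2.87-fold between Ly6C-high TAM and spleen monocytes (1.82 ± 0.43, limma adjusted p = 0.0591). The latter passed after median centring (1.90, limma adjusted p = 0.0429) and among genes above the 25th percentile of mean level (limma adjusted p = 0.047). Both differences also passed in fits with a term for the replicate number, which the labels tie to nothing shared. Of 13 markers of mast cells, also known for this enzyme, and of basophils, 3 to 5 lay above background on each array. Those above it in all 4 populations by their mean were Kit, Hdc, Gata2 and Tpsb2, and Kit was highest in colon macrophages (8.00 and 8.69). Of the other markers on the list, Cpa3, Fcer1a, Ms4a2, Mcpt1, Mcpt2, Mcpt4 and Cma1 lay at or below background in all 4 populations. The part of such cells in the Hpgds values was not tested. The list's summed level on a log2 scale was between 9.56 and 10.36 over the arrays. The mean log2 value of 9 markers of tuft cells, a cell type of the gut epithelium, was 6.43 and 6.24 in the colon arrays. On the tumour and spleen arrays it was between 5.96 and 6.19. General epithelial markers were also highest in the colon arrays. The part of tuft and other epithelial cells in the values of Hpgds, Ptgs1, Alox5 and Ltc4s was not tested.

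Ptgs1 and Hpgds had the same order of populations. The genes most like Ptgs1 over the 8 arrays, out of 6309 that varied by at least 1 log2 unit, were Ms4a14 and Ms4a7 (Pearson r = 0.997 for both), members of a family of membrane proteins. Those most like Hpgds were Fcrls, an Fc receptor-like gene, and the sorting nexin gene Snx8 (r = 0.992 for both). With 4 populations of 2 arrays, such values describe a shared order of populations. The promoter windows of both genes, and that of Hpgd for contrast, are shown because these genes carry main differences. Alox5ap does too, but no window was available for it or for Alox15. The windows run from 250 bases before to 50 bases after the RefSeq start on GRCm38.p6, at chr2:36230176-36230475 (plus strand) for Ptgs1, chr6:65144681-65144980 (minus strand) for Hpgds and chr8:56294302-56294601 (plus strand) for Hpgd. Capitals mark matches to 5 motifs searched on both strands: GAGGAA, the core bound by the myeloid factor PU.1, TATAAA, the TATA box, GGGCGG, the GC box, TGANTCA, the AP-1 site, and ACGTG, the core of hypoxia response elements.
Ptgs1: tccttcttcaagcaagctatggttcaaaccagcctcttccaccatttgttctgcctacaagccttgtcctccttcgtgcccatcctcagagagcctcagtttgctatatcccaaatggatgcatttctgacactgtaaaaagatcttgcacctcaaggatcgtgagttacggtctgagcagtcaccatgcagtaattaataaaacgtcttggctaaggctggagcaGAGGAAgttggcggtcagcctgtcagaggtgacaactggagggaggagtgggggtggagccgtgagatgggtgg
Hpgds: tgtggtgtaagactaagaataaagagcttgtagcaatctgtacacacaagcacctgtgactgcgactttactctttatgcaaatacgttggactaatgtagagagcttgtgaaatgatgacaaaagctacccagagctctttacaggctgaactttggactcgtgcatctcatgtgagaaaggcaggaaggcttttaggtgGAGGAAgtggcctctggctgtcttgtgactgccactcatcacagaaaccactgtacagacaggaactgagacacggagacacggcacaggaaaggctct
Hpgd: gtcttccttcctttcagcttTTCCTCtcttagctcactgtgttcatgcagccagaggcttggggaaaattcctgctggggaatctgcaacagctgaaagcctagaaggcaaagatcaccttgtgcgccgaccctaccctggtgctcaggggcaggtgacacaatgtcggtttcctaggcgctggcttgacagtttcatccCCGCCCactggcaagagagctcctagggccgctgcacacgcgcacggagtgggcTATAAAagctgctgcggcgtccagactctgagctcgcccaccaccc
The PU.1 core was found in the windows of Ptgs1 (bases 227 to 232) and Hpgds (bases 202 to 207) on the printed strand, and in that of Hpgd (bases 21 to 26) on the opposite strand. Of the 8 members with a window, counted by gene, 7 held it. Counted by window, it was in 28.3% of 32851 windows of the same length. The Hpgd window also had a match to the TATA box letters at bases 255 to 260, within the 50 bases after the RefSeq start. That motif was in 13.6% of all windows. A GC box match lay on the opposite strand, a motif in 35.7%. AP-1 sites were in none of the 8 members' windows and in 7.81% of all windows. The hypoxia core was in 1 member, Ptgs2, as 2 overlapping matches on opposite strands, and in 19.6% of all windows. A match is a string of letters and not evidence of binding.

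Hpgd encodes 15-hydroxyprostaglandin dehydrogenase, which inactivates prostaglandin E2 and related products. Its log2 expression was 12.27 and 12.33 in spleen monocytes, 11.82 and 12.15 in colon macrophages, 8.41 and 8.48 in Ly6C-high TAM and 7.51 and 8.21 in F4/80-high TAM. The 4 tumour arrays were all below the 4 arrays from colon and spleen, and all of them were above background. Hpgd fell by 4.13 ± 0.24 in F4/80-high TAM against colon macrophages (limma adjusted p = 0.000908) and differed by -3.85 ± 0.24 between Ly6C-high TAM and spleen monocytes (limma adjusted p = 0.000523). It was 21.7-fold lower in F4/80-high TAM than in spleen monocytes (-4.44 ± 0.24, limma adjusted p = 0.000192) and 11.6-fold lower in Ly6C-high TAM than in colon macrophages (-3.54 ± 0.24, limma adjusted p = 0.000698). Each of these 4 calls held in the 20 other settings. Colon macrophages and spleen monocytes differed by -0.31 ± 0.24 (limma adjusted p = 0.466), and the 2 tumour populations by -0.59 ± 0.24 (limma adjusted p = 0.556). The interaction, the difference between the 2 tumour differences, did not pass (-0.28 ± 0.34, limma adjusted p = 0.702).

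Hpgd is also a gene of the gut epithelium, and epithelial markers were highest in the colon arrays. Both spleen arrays had more Hpgd than both colon arrays, with epithelial means of 6.98 and 6.33, within or below the range of the tumour arrays. The tumour arrays with more epithelial signal, replicate 2 of each population, had 1.63-fold and 1.05-fold more Hpgd than replicate 1. Without those arrays the tumour differences were -4.48 for F4/80-high TAM minus colon macrophages and -3.88 for Ly6C-high TAM minus spleen monocytes. The part of epithelial cells in the Hpgd values was not tested. The genes most like Hpgd over the 8 arrays were the tetraspanin gene Tspan13 (Pearson r = 0.98) and the sialyltransferase gene St8sia6 (r = 0.978).

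**Figure D2:**
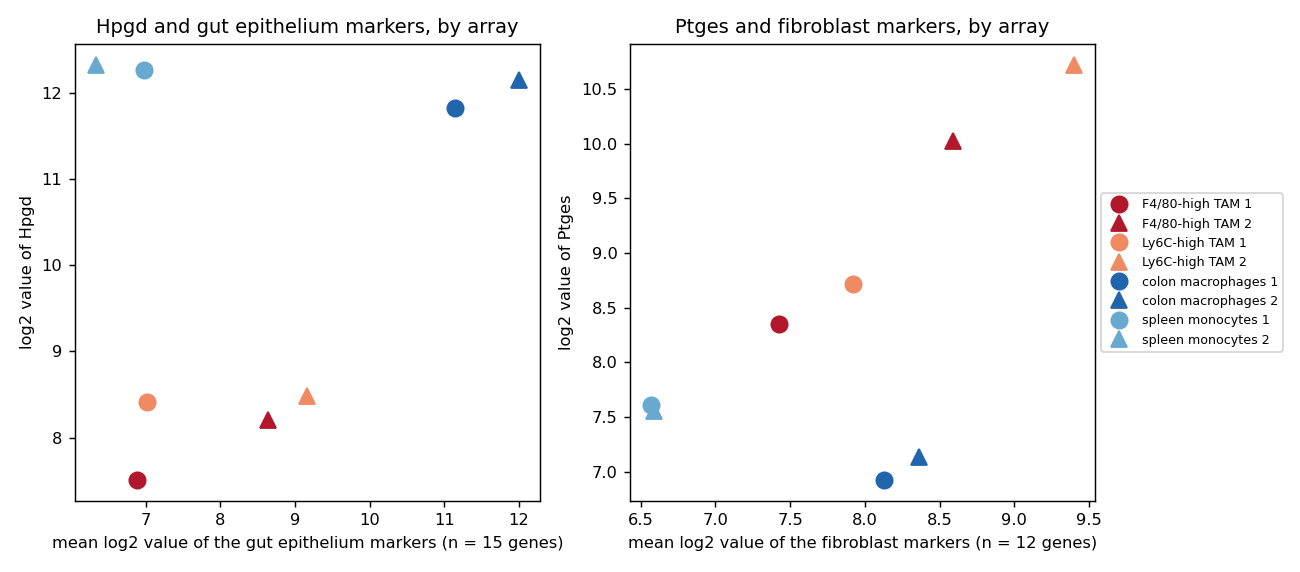
Left: log2 value of Hpgd against the mean log2 value of 15 gut epithelial markers in each of the 8 arrays. Right: log2 value of Ptges against the mean of 12 fibroblast markers. Circles are replicate 1 and triangles replicate 2, with 1 colour per population. Spleen monocytes combine high Hpgd (12.27 and 12.33) with low epithelial means (6.98 and 6.33).

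In the leukotriene branch, Alox5, the 5-lipoxygenase gene, and Alox5ap, which encodes the membrane protein that presents arachidonic acid to it, had different patterns. Alox5 had log2 values of 10.13 and 10.16 in colon macrophages, 9.68 and 8.53 in F4/80-high TAM, 8.71 and 8.71 in spleen monocytes and 8.65 and 7.48 in Ly6C-high TAM. Colon macrophages were above all others, F4/80-high TAM overlapped both Ly6C-high populations, and in each tumour population replicate 1 was over 2-fold above replicate 2 (2.22-fold and 2.24-fold). Alox5 was 4.24-fold lower in Ly6C-high TAM than in colon macrophages (-2.08 ± 0.46, limma adjusted p = 0.0342). That call was lost without Ly6C-high TAM replicate 2 (-1.50, limma adjusted p = 0.0811), without either colon array (limma adjusted p of up to 0.146) or without either spleen array (limma adjusted p = 0.0776). Colon macrophages were 2.70-fold above spleen monocytes (1.43 ± 0.46, limma adjusted p = 0.0803), a difference that passed when any tumour array was left out (limma adjusted p = 0.0497 without either F4/80-high array and 0.0279 without either Ly6C-high array). Those removals left the difference as it was and changed the spread of the fit. Over the 8 arrays, the genes most like Alox5 were the ion channel gene Trpv4 (Pearson r = 0.992) and the sulphate transporter gene Slc26a11 (r = 0.989).

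Alox5ap, like Ptges, had its lowest values in colon macrophages. It had log2 values of 13.04 and 12.95 in spleen monocytes, 12.83 and 12.49 in Ly6C-high TAM, 12.50 and 12.32 in F4/80-high TAM and 10.61 and 10.24 in colon macrophages. The 2 tumour populations overlapped, and the spleen arrays were above and the colon arrays below all of them. Against colon macrophages, Alox5ap was 3.94-fold higher in F4/80-high TAM (1.98 ± 0.18, limma adjusted p = 0.00303), 4.69-fold higher in Ly6C-high TAM (2.23 ± 0.18, limma adjusted p = 0.00143) and 5.92-fold higher in spleen monocytes (-2.56 ± 0.18 for colon macrophages minus spleen monocytes, limma adjusted p = 0.000387). These calls held in each of the 20 other settings. The differences among the other 3 populations were -0.58 or smaller in size and did not pass. The genes most like it were Rgs19, a regulator of G protein signalling (Pearson r = 0.996), and Emp3, an epithelial membrane protein gene (r = 0.995).

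Ltc4s encodes leukotriene C4 synthase, which joins leukotriene A4 to glutathione. Its log2 expression was 9.45 and 7.53 in F4/80-high TAM, 8.66 and 8.92 in colon macrophages, 8.21 and 6.82 in Ly6C-high TAM and 6.67 and 6.66 in spleen monocytes. The tumour populations spanned a wide range, with replicate 1 above replicate 2 by 3.77-fold and 2.62-fold, and both spleen arrays were lowest. Colon macrophages were 4.36-fold above spleen monocytes (2.12 ± 0.66, limma adjusted p = 0.0727), which passed without either F4/80-high TAM array (limma adjusted p = 0.0265) and without either Ly6C-high TAM array (limma adjusted p = 0.0379). F4/80-high TAM was 3.55-fold above spleen monocytes (1.83 ± 0.66, limma adjusted p = 0.141). That difference was 0.87 without F4/80-high TAM replicate 1 (limma adjusted p = 0.363), and 2.78 without replicate 2, where it passed (limma adjusted p = 0.0479). Ly6C-high TAM was 1.80-fold above spleen monocytes (0.85 ± 0.66, limma adjusted p = 0.48), and 1.54 on the log2 scale without replicate 2 of both tumour populations (limma adjusted p = 0.00577), in the fit with lone tumour arrays.

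Alox15 encodes the 12/15-lipoxygenase of mouse, known from eosinophils and peritoneal macrophages. It lay at background in colon macrophages (5.97 and 5.90) and spleen monocytes (5.86 and 6.09). In the tumour populations replicate 1 was at the same level (5.94 in F4/80-high TAM and 5.83 in Ly6C-high TAM) and replicate 2 was higher (7.56 and 6.93). No pair passed, and the largest measured difference was 0.81 ± 0.55 (F4/80-high TAM minus colon macrophages, limma adjusted p = 0.443). The mean log2 value of 7 eosinophil markers was 5.77 and 5.82 in F4/80-high TAM and 5.87 and 5.66 in Ly6C-high TAM. Of these markers, 2 lay above background on each tumour array, and Epx, a defining granule gene, was at background in all 4 populations. The part of eosinophils in the Alox15 values was not tested.

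Within each tumour population, replicate 2 was higher than replicate 1 in Ptgs2, Ptges, Hpgd and Alox15 and lower in the other 6 genes. The same 2 arrays carried more epithelial and fibroblast signal, as given above, and their part in these gaps was not tested.

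The members were then counted by pair. In F4/80-high TAM against colon macrophages, 1 of 10 was higher (Alox5ap) and 1 lower (Hpgd). Of all genes, 6.39% passed there, 2.67% as higher and 3.72% as lower. The members' median difference was -0.34, against 0.05 over all genes. In Ly6C-high TAM against spleen monocytes, 1 was higher (Ptgs1) and 1 lower (Hpgd), where 4.5% of all genes passed (2.88% higher and 1.62% lower), with medians of 0.75 and -0.08. Without spleen monocytes replicate 2, 1 passed (Hpgd), and without Ly6C-high TAM replicate 1, 4 passed. Between the tumour populations none passed in limma, where 0.266% of all genes did (0.168% higher and 0.0979% lower in F4/80-high TAM). There 3 members (Ptgs1, Hpgds and Hpgd) had an unadjusted p under 0.05, as did 8.57% of all genes, and the members' median was 0.31 against 0.05. In F4/80-high TAM against spleen monocytes, 3 were higher (Ptgs1, Ptgs2 and Hpgds) and 1 lower (Hpgd), where 6.95% of all genes passed (4.58% higher and 2.37% lower), with medians of 1.26 and -0.02. In Ly6C-high TAM against colon macrophages, 1 was higher (Alox5ap) and 4 lower (Ptgs1, Hpgds, Hpgd and Alox5), where 6.9% of all genes passed (2.74% higher and 4.16% lower), with medians of -0.71 and -0.01. This total of 5 fell to 3 without either colon array or either spleen array. In colon macrophages against spleen monocytes, 3 were higher (Ptgs1, Ptgs2 and Hpgds) and 1 lower (Alox5ap), where 10.9% of all genes passed (6.93% higher and 4% lower), with medians of 1.12 and -0.07. The arrays of the 2 populations did not overlap for 8 members (80%) in F4/80-high TAM against spleen monocytes, where 60.7% of all genes did not overlap. In F4/80-high TAM against colon macrophages this held for 7 (70%, against 50.8% of all genes), and between the tumour populations for 4 (40%, against 29.8%). Ly6C-high TAM had 9 against spleen monocytes (90%, against 60.6%) and 7 against colon macrophages (70%, against 46.4%). Colon macrophages against spleen monocytes had 9 (90%, against 63.9%). The pairs share populations, so these counts are not independent of one another.

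**Figure D3:**
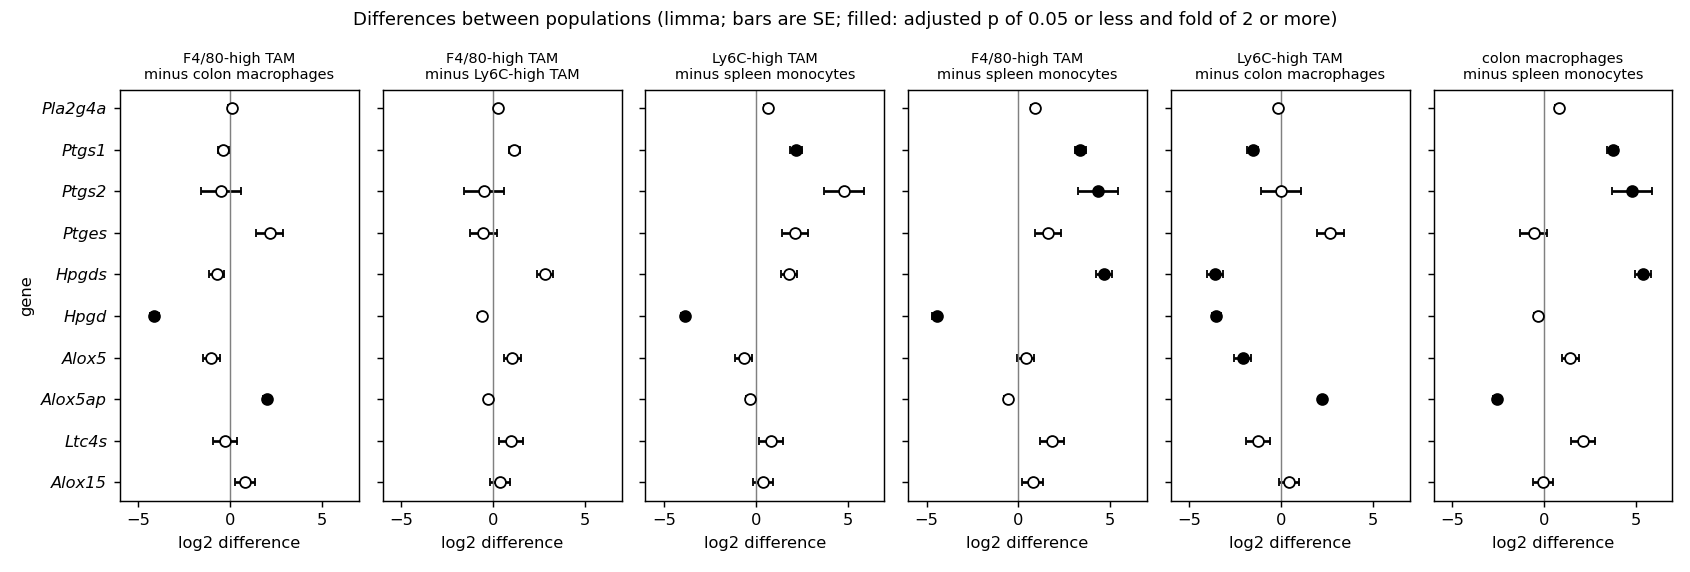
Log2 differences of the 10 genes (rows) in the 6 pairs of populations (panels), with bars for the SE of the limma fit. Filled points passed both limits, an adjusted p no higher than 0.05 and at least a 2-fold change. Hpgd is lower in all 4 pairs of a tumour population with colon macrophages or spleen monocytes, and Alox5ap is displaced in all 3 pairs that include colon macrophages.

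Whether the tumour populations differed equally from their counterparts in mature cells (F4/80-high TAM minus colon macrophages) and in Ly6C-high cells (Ly6C-high TAM minus spleen monocytes) was asked of an interaction term, with an adjusted p no higher than 0.05. The same contrast asks whether mature and Ly6C-high cells differed equally in tumour and outside it. Ly6C-high TAM and spleen monocytes came from different organs, so tumour and organ cannot be told apart in their difference. Of the 10 genes, Alox5ap and Ptgs1 passed, 1 in each direction, where 6.56% of all genes did (3.12% higher and 3.44% lower). Alox5ap differed by 1.98 in the mature cells and by -0.33 in the Ly6C-high cells (difference 2.31 ± 0.26, limma adjusted p = 0.00745). Ptgs1 differed by -0.38 and by 2.20 (difference -2.58 ± 0.44, limma adjusted p = 0.0243). Hpgds had a measured difference near that of Ptgs1 that missed the threshold (-2.56 ± 0.61, limma adjusted p = 0.0583). It passed among genes above the 25th percentile of mean level (limma adjusted p = 0.0483). The Hpgds mean in spleen monocytes was at background, so the size of its difference is less sure than that of Ptgs1. Alox5ap lost its call without spleen monocytes replicate 2 (limma adjusted p = 0.0512). Ptgs1 lost its call without any of the 6 arrays of F4/80-high TAM, colon macrophages or spleen monocytes (limma adjusted p from 0.0683 to 0.12). Ptgs2 differed by -5.29 ± 1.53 and did not pass (limma adjusted p = 0.0961). Its difference was -7.09 without spleen monocytes replicate 1 and -3.496 without spleen monocytes replicate 2. Without replicate 1, the only spleen array left was replicate 2, whose Ptgs2 value of 5.93 lay below the background of 6.31. The size of the Ptgs2 difference thus depends on which spleen array is kept.

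**Figure D4:**
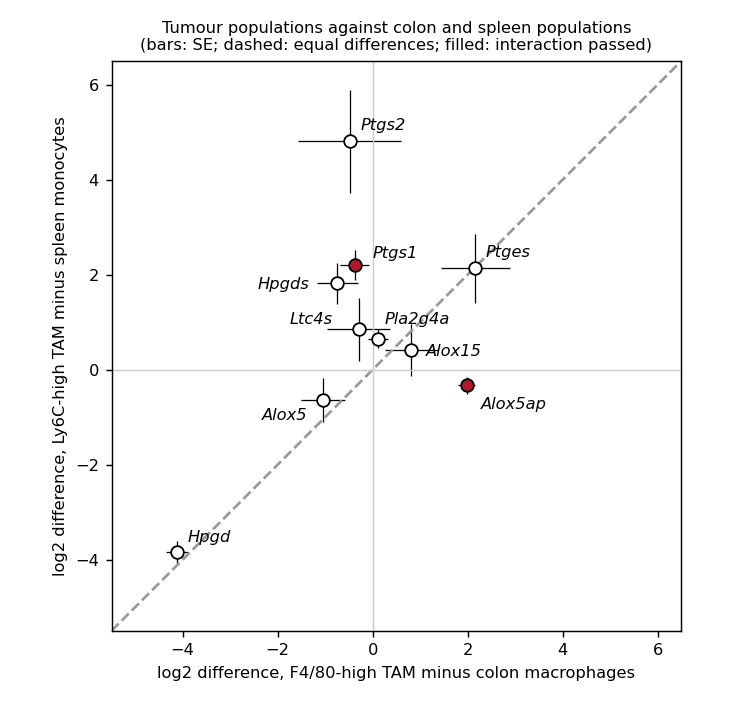
Log2 difference of each gene between Ly6C-high TAM and spleen monocytes (vertical axis) against that between F4/80-high TAM and colon macrophages (horizontal axis), with SE bars. The dashed line marks equal differences, and filled points are genes whose 2 differences differed in the limma interaction. Hpgd lies near the line at -4.13 and -3.85, while Alox5ap (1.98 and -0.33) and Ptgs1 (-0.38 and 2.20) lie off it.

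The rest of the pathway was described through 69 further genes of eicosanoid synthesis, transport and reception, of which 68 were measured and 22 passed in at least 1 pair. In colon macrophages against spleen monocytes, 13 of the 68 were higher and 6 lower, which is 27.9% of them against 10.9% of all genes. In Ly6C-high TAM against colon macrophages 5 were higher and 10 lower (22.1%, against 6.9% of all genes), and in F4/80-high TAM against colon macrophages 3 were higher and 6 lower (13.2%, against 6.39%). F4/80-high TAM had 9 higher and 2 lower than spleen monocytes (16.2%, against 6.95%), and Ly6C-high TAM 3 higher and 1 lower than spleen monocytes (5.88%, against 4.5%, a share near that of all genes). Between the tumour populations none passed in limma, and 13 had an unadjusted p under 0.05, as did 1837 of all genes (8.57%). The median of these genes was between -0.08 and 0.06 in the 6 pairs.

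Among the 12 other prostanoid synthases and carriers, Tbxas1, which makes thromboxane, was higher than in spleen monocytes in all 3 other populations (1.27 ± 0.16 in F4/80-high TAM, limma adjusted p = 0.00527, 1.06 in colon macrophages and 1.03 in Ly6C-high TAM). Abcc4, a transporter that exports prostaglandins, had log2 values of 10.16 and 10.21 in spleen monocytes and 8.49 and 8.64 in colon macrophages, with both tumour populations between. It was lower in F4/80-high TAM than in spleen monocytes (-1.14 ± 0.14, limma adjusted p = 0.0044) and higher in Ly6C-high TAM than in colon macrophages (1.26). Of the 9 prostanoid receptors, the prostacyclin receptor gene Ptgir changed most. It had 9.78 and 9.86 in spleen monocytes, 7.57 and 7.75 in Ly6C-high TAM, 6.65 and 6.68 in F4/80-high TAM and 6.64 and 6.49 in colon macrophages. It fell by 3.15 ± 0.12 in F4/80-high TAM against spleen monocytes (limma adjusted p = 8.66e-05) and differed by -2.16 in Ly6C-high TAM. Ptger4, a receptor for prostaglandin E2, was lower in Ly6C-high TAM than in colon macrophages (-1.03 ± 0.16, limma adjusted p = 0.0104), and its values lay between 9.85 and 11.04 over the 8 arrays.

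The 12 further leukotriene genes included both enzymes and receptors. Dpep2, a dipeptidase that converts leukotriene D4 to leukotriene E4, had 12.08 and 12.12 in F4/80-high TAM, 12.39 and 11.57 in Ly6C-high TAM, 10.80 and 10.53 in spleen monocytes and 9.30 and 9.02 in colon macrophages. It was higher in both tumour populations than in colon macrophages (2.94 ± 0.27 and 2.82 ± 0.27, limma adjusted p = 0.00303 and 0.00225) and than in spleen monocytes (1.43 and 1.31). Its relative Dpep1, a dipeptidase also known from intestinal epithelium and tumours, read 9.11 and 10.41 in colon macrophages and was at background in the other 3 populations. The colon arrays also had the highest epithelial marker means (11.15 and 12.00), and their part in Dpep1 was not tested. Ltb4r1, the high-affinity receptor for leukotriene B4, was higher in Ly6C-high TAM than in colon macrophages (2.36 ± 0.17, limma adjusted p = 0.000845) and in F4/80-high TAM than in colon macrophages (1.26), and lower in colon macrophages than in spleen monocytes (-2.18). Cysltr2, a receptor for cysteinyl leukotrienes, was highest in F4/80-high TAM (7.90 and 7.27) and passed there against colon macrophages (1.23 ± 0.29, limma adjusted p = 0.0391) and spleen monocytes (at least 2.42-fold, since both spleen arrays were below background, limma adjusted p = 0.00432).

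Of 25 phospholipases and genes of arachidonate supply, the phospholipase gene Pla2g4c set colon macrophages apart most, with 10.20 and 9.81 there, 7.49 and 7.63 in F4/80-high TAM, 7.40 and 7.20 in Ly6C-high TAM and 6.17 and 5.93 in spleen monocytes. It was lower in both tumour populations than in colon macrophages (-2.44 ± 0.18 and -2.71 ± 0.18, limma adjusted p = 0.00154 and 0.00067). Both spleen arrays were below background. Against that background, Pla2g4c was at least 2.38-fold higher in F4/80-high TAM (limma adjusted p = 0.00339) and at least 1.99-fold higher in Ly6C-high TAM (limma adjusted p = 0.0102). Pla2g10 and Mgll, which encode a secreted phospholipase and monoglyceride lipase, were also lower in both tumour populations than in colon macrophages (Pla2g10 by -2.22 in F4/80-high TAM and -1.91 in Ly6C-high TAM). Mgll was at background in all but colon macrophages, so its differences are lower bounds, at least 1.89-fold for F4/80-high TAM and at least 1.72-fold for Ly6C-high TAM, where 1 of 2 arrays was below background. Lpcat2, which makes platelet-activating factor, was higher than in spleen monocytes in F4/80-high TAM (1.20 ± 0.17, limma adjusted p = 0.00666) and in colon macrophages (1.25). Of 10 measured genes for other lipoxygenases and oxylipins, Gpr31b, whose human counterpart is a receptor for a 12-lipoxygenase product, followed the order of Ptgs1 and Hpgds, with 11.96 and 12.01 in colon macrophages, 11.30 and 11.07 in F4/80-high TAM, 9.92 and 9.21 in Ly6C-high TAM and 8.97 and 7.79 in spleen monocytes. The epoxide hydrolase gene Ephx1 was lower in F4/80-high TAM (-1.29 ± 0.25, limma adjusted p = 0.0227) and in Ly6C-high TAM (-2.39) than in colon macrophages. The colon arrays also had the highest epithelial marker means (11.15 and 12.00). The part of epithelial cells in the values of Pla2g4c, Pla2g10, Mgll and Ephx1 was not tested.

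**Figure D5:**
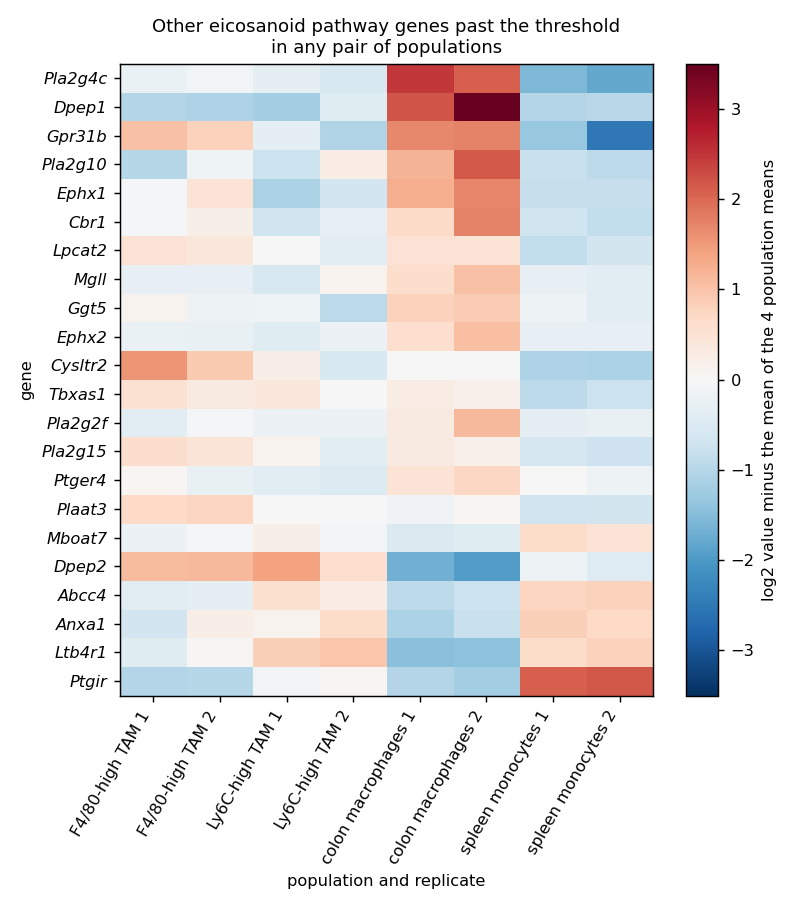
Other eicosanoid pathway genes that passed in at least 1 pair (rows, 22 genes) on the 8 arrays (columns). Colour is the log2 value minus the mean of the 4 population means, red above and blue below. Rows run from genes higher in colon macrophages than in spleen monocytes, such as Pla2g4c, to genes higher in spleen monocytes, such as Ptgir.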

How the data were processed

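Per the labels, RNA of sorted cells was hybridised to 8 Affymetrix arrays, 2 for each of 4 populations. The deposited values are log2 expression values made by the authors, and the submitters' processing notes name RMA and Partek 6.6. Genome build: not given in the sources here. Gene symbols came from the authors' deposited annotation table and were updated through RefSeq accessions (21020 of 24692 named probe sets matched, 1926 symbols changed). Another 8 columns of values in that table match no sample's labels and were not used. The probe set with the highest mean stood for each of 21442 genes.

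Group means were fitted to all 8 arrays with limma 3.58.1 in R 4.3.3 (lmFit, eBayes), with Benjamini-Hochberg adjustment over all 21442 genes. A gene passed in a pair with an adjusted p no higher than 0.05 and at least a 2-fold change, as in the study's design text. The interaction had no fold limit. In a simulation of the first pair (F4/80-high TAM and colon macrophages, 21442 genes), the fit recovered 84% of 100 genes changed by 2 log2 units and 94% of 100 changed by 3, with 9 false calls. The simulated noise was independent between arrays, with the same spread of a gene in every population. In the data the spread differed between populations and same-numbered tumour arrays deviated together, so these shares may not hold for them. With 2 arrays per group, the number of arrays limits the precision.

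The 10 genes, the pathway and marker lists and the settings were chosen with earlier results of these data known. All 10 genes are named, other pathway genes only where they passed in a pair, and for each of the 10 that passed, the 2 genes with the highest Pearson correlation over the arrays are candidates for naming. Those had 1 symbol, no predicted name and a range of at least 1 log2 unit. Near or at background means a group mean at or below the 95th percentile of receptor genes. Promoter windows are RefSeq sequences of GRCm38.p6. Alternatives were median centring, quantile normalization, a filter on low levels, other uses of probe sets and symbols, another prior, smaller fits, no fold limit, a replicate block, and fits without the replicate 2 tumour arrays or without each array in turn.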

Additional observations from a re-analysis of the deposited data

Results flagged for a closer look

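For 2 of the 10 genes, the tumour difference was not the same in mature and in Ly6C-high cells by the limma interaction, which 6.56% of all genes passed. In the Ly6C-high cells, tumour and organ cannot be told apart, since the compared monocytes came from spleen. For Ptgs1 the interaction was -2.58 log2 units (limma adjusted p = 0.0243): F4/80-high TAM differed from colon macrophages by -0.38, and Ly6C-high TAM from spleen monocytes by 2.20. For Alox5ap it was 2.31 (limma adjusted p = 0.00745), from differences of 1.98 and -0.33. With 2 arrays per population, no population was tested for arrays that stand apart from the rest of their group.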

How the results depend on the processing

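Over 20 other settings, the 6 pairs and the interaction, 1251 of the members' differences kept their direction and side of the threshold, 55 gained a call, 40 lost one and 34 turned direction. None of those that turned had passed, and the cause was not tested except where the setting itself removes arrays or genes. The calls for Hpgd, Hpgds and Alox5ap in the pairs held throughout. The number of members that passed between the tumour populations, 0, became 1 with a replicate block over all arrays, 3 with that block only among tumour arrays and 1 without the replicate 2 arrays of both. For Ly6C-high TAM minus spleen monocytes, 2 became 4 among genes above the 25th percentile, 1 with only the arrays compared, 5 with the tumour replicate block and 4 without both replicate 2 tumour arrays. For Ly6C-high TAM minus colon macrophages, 5 became 3 with all probe sets tested and 3 with only the arrays compared. For the interaction, 2 became 1 with all probe sets and 5 with the tumour replicate block. Same-numbered arrays deviated together with a correlation of 0.77 between the tumour populations and of -0.15 to 0.26 in the other pairs, and the labels tie the numbers to nothing shared. Between the tumour populations, Hpgds passed with the block over all arrays (limma adjusted p = 0.0174) and Hpgds (0.0164), Ptgs1 (0.0349) and Alox5 (0.00805) with the tumour block. Leaving out single arrays gave 2 to 3 calls for F4/80-high TAM minus colon macrophages, 0 to 0 between the tumour populations, 1 to 4 for Ly6C-high TAM minus spleen monocytes, 3 to 4 for F4/80-high TAM minus spleen monocytes, 3 to 6 for Ly6C-high TAM minus colon macrophages, 3 to 6 for colon macrophages minus spleen monocytes and 0 to 2 for the interaction. A lone array was then assumed to vary like the other groups. With the tumour replicate block, Ltc4s turned to 0.53 in F4/80-high TAM minus colon macrophages, and Alox15 to -0.27 against spleen monocytes and -0.23 against colon macrophages in Ly6C-high TAM. Without both replicate 2 tumour arrays, the same 3 were 0.66, -0.14 and -0.10, Alox15 in F4/80-high TAM minus spleen monocytes was -0.040 and Pla2g4a in Ly6C-high TAM minus colon macrophages was 0.042. Median centring gave 0.084 for Ptgs2 in Ly6C-high TAM minus colon macrophages, and quantile normalization 0.045 for Alox15 in colon macrophages minus spleen monocytes. Median centring moved the median of all genes by 0.14 in F4/80-high TAM minus colon macrophages and by 0.13 in F4/80-high TAM minus spleen monocytes. Leaving out single arrays, the differences that turned ranged as follows. Alox15 ranged from -0.45 to 1.18 between the tumour populations, -0.040 to 1.59 in F4/80-high TAM minus spleen monocytes, -0.10 to 1.00 in Ly6C-high TAM minus colon macrophages, -0.14 to 0.95 in Ly6C-high TAM minus spleen monocytes, -0.15 to 0.071 in colon macrophages minus spleen monocytes and -0.41 to 1.22 in the interaction. Alox5 ranged from -0.18 to 0.97 in F4/80-high TAM minus spleen monocytes and from -0.98 to 0.19 in the interaction. The Hpgd interaction ranged from -0.63 to 0.074. Ltc4s in F4/80-high TAM minus colon macrophages ranged from -1.25 to 0.66, and Pla2g4a in Ly6C-high TAM minus colon macrophages from -0.35 to 0.042. Ptges ranged from -1.53 to 0.47 between the tumour populations and from -0.98 to 1.02 in the interaction. Ptgs2 ranged from -1.12 to 0.17 between the tumour populations, -1.13 to 0.16 in F4/80-high TAM minus colon macrophages and -0.39 to 0.38 in Ly6C-high TAM minus colon macrophages. Signal near background limits Alox15 in colon macrophages and spleen monocytes, and Hpgds in spleen monocytes. For Ptgs2, replicate 2 of spleen monocytes lay below background.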
